A study of Homo sapiens with 9 samples.

Results

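A set of 35 genes known as targets, partners or upstream kinases of the transcription factor ATF4, together with the amino acid transporters it is known to control, was followed in SKOV3, a human line established from an ovarian tumour that carries many copies of the growth factor receptor gene ERBB2. The genes were chosen by name, with earlier results of these data known. Counts and shares of these genes therefore describe the set and are not independent evidence. A gene was taken as measured where a probe set of the array was annotated to it alone, which held for 32 of the 35, of 14215 genes measured that way in all. GPT2 and PYCR1 had no probe set in the annotation, and BCAT1 was present only on a probe set that named further genes, so these 3 were not analysed here. Total RNA was measured on 9 arrays, each from a separate culture flask, with 3 flasks in each of 3 groups. The first group received 50 µM Ac-4-deoxy-GlcNAc, a peracetylated form of an N-acetylglucosamine analog that lacks the hydroxyl group at the 4-position. The second group received 50 µM Ac-GlcNAc, peracetylated N-acetylglucosamine itself. The third group was left untreated. All flasks were kept for 3 days in the same serum-containing medium. The labels describe the controls as untreated and name no solvent, so an effect of a solvent cannot be told apart from that of a compound in the comparisons with untreated cells.

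ATF4 is the central transcription factor of the integrated stress response. Kinases such as PERK (EIF2AK3) and GCN2 (EIF2AK4) sense unfolded protein in the endoplasmic reticulum or uncharged tRNA and phosphorylate the translation factor eIF2, which slows protein synthesis in general while ATF4 mRNA is translated more. With partners of the C/EBP family, ATF4 then raises genes that import and make amino acids. It also raises genes such as TRIB3 and PPP1R15A that feed back on the response. Because ATF4 is governed largely at translation, its mRNA level is a poor measure of its protein, which was not measured here.

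ATF4 and a C/EBP partner are known to bind a composite motif in many target genes, the C/EBP-ATF response element, searched here as TGATGNAA on both strands. RefSeq windows of 300 bases (GRCh38.p14, 250 bases before and 50 after the annotated start) were available for 29 of the 32 measured genes. The motif was present in 7 of these 29 windows (24.1%), against 3.62% of 35116 windows in the table. The genes were chosen as reported targets, so this share is a description and not independent evidence. Among the 8 genes with a window that passed the expression test described below, 1 held the motif (SLC38A1), and among the 21 others 6 held it (ATF3, CHAC1, ASNS, GOT1, SLC7A1 and SLC3A2). The palindromic cyclic AMP response element TGACGTCA, which shares only part of its letters with the first motif, was present in 1 of the 29 windows, that of PPP1R15A (3.45%, against 1.85% of all windows). A match is not evidence of binding, and a window without these letters says nothing about ATF4 at that gene. The windows of ASNS and CHAC1, which are well studied ATF4 targets that did not pass the test, and of SLC38A1, which did, are shown with the motif in capitals. The ASNS window is chr7:97872359-97872658 on the minus strand, with the motif starting 68 bases before the start site. The CHAC1 window is chr15:40953221-40953520 on the plus strand, with the motif on the opposite strand and its capitals starting 209 bases before the start site. The SLC38A1 window is chr12:46266467-46266766 on the minus strand, with the motif starting 4 bases before the start site and running across it.
ASNS: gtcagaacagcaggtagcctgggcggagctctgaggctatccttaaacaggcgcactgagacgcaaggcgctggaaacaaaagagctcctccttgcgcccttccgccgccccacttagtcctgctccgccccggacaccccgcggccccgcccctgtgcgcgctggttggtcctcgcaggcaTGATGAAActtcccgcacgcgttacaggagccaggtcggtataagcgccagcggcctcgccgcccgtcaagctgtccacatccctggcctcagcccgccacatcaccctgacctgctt
CHAC1: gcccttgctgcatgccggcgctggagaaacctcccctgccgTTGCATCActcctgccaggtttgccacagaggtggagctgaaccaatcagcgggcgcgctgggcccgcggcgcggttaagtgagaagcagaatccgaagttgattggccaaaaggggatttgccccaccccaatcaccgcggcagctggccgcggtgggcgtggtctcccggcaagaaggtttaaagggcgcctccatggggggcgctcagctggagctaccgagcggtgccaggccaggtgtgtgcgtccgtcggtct
SLC38A1: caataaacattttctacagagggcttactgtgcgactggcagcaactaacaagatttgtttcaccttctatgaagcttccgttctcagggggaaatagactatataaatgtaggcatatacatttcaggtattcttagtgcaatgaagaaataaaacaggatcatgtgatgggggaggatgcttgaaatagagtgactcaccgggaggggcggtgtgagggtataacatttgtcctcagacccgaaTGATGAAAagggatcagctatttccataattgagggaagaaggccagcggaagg

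Values are log2 levels made by the authors, 1 per probe set and array, and differences between groups are differences of log2 means, so that 1 is a doubling. A gene was called where limma's moderated test, two-sided and adjusted by Benjamini-Hochberg over all 17859 probe sets, gave an adjusted p under 0.05. The medians of the arrays lay between 6.58 and 6.65, and precision was limited by the number of arrays: the standard error (SE) of a log2 difference for the 32 genes ran from 0.09 to 0.18, with a median of 0.11. The spread of values within an array moved with the groups, with an SD over probe sets of 2.07 to 2.17 on Ac-4-deoxy-GlcNAc arrays, 2.14 to 2.18 on Ac-GlcNAc arrays and 1.92 to 2.08 on untreated arrays, where untreated replicate 2 was the narrowest. Of the epithelial and ovarian markers, ERBB2 lay at 12.18 to 12.30 on all arrays, KRT8 at 10.88 to 11.32 and EPCAM at 7.78 to 8.36, while WT1 lay at 5.57 to 5.89. Of the markers of other cell types, the leukocyte genes PTPRC and CD3E, the endothelial gene CDH5, the fibroblast gene DCN and the adipocyte gene ADIPOQ stayed at or under 4.99. The endothelial gene PECAM1 lay at 5.24 to 5.75, the fibroblast genes PDGFRB at 5.55 to 5.82 and LUM at 6.49 to 7.31, and the macrophage gene CD68, which other cells also express, at 8.89 to 9.55. Of the 8 SKOV3 markers, 3 were called with Ac-4-deoxy-GlcNAc against untreated cells (KRT7 by -0.46 log2, KRT19 by -0.49 and CD24 by 0.43). So were 3 of 9 markers of other cell types (CD68 by -0.37, LUM by -0.46 and PECAM1 by 0.41). Over all probe sets 5.38% were called higher and 5.64% lower. CD24 alone was called with Ac-GlcNAc (0.62 log2), where 0.207% of all probe sets were called higher and 0.235% lower. The part of these marker shifts, or of the spread within arrays, in the results was not tested beyond the settings given. The arrays measured RNA of whole flasks, so more RNA per cell and more cells that carry it cannot be told apart in any result below.

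Cells given Ac-4-deoxy-GlcNAc had higher levels of 9 of the 32 genes than untreated cells, and none was called lower. The 9 were the amino acid transporters SLC1A5, SLC38A1, SLC38A2, SLC6A9 and SLC43A1, the metabolic enzymes CBS and PCK2, the feedback regulator TRIB3 and the stress-inducible cofactor NUPR1. Their rises ran from 0.34 log2 for SLC43A1 to 0.85 log2 for CBS. This was 28.1% of the 32 genes, against 5.38% of all probe sets called higher and 5.64% called lower, and against 8.79% called higher among probe sets at or above the median level. The median log2 difference of the 32 genes was 0.22, against -0.05 over all probe sets and 0.05 over those at or above the median level. On 14 of the 32 genes every Ac-4-deoxy-GlcNAc array lay above every untreated array, which held for 13.0% of all probe sets and 20.9% of those at or above the median level, and 0 lay wholly below (19.1% of all probe sets). At an unadjusted p under 0.05, 15 of the 32 passed, against 31.2% of all probe sets. With the array SD entered as a covariate 6 genes were called higher, against 1.37% of all probe sets, and the calls of NUPR1, SLC38A1 and SLC43A1 were lost. Of the 9 calls, 6 held when each array of the compared groups was left out in turn (TRIB3, PCK2, CBS, SLC38A1, SLC38A2 and SLC1A5). Those of NUPR1, SLC6A9 and SLC43A1 did not. The Ac-GlcNAc arrays, which also entered the fit, were not left out here.

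**Figure D1:**
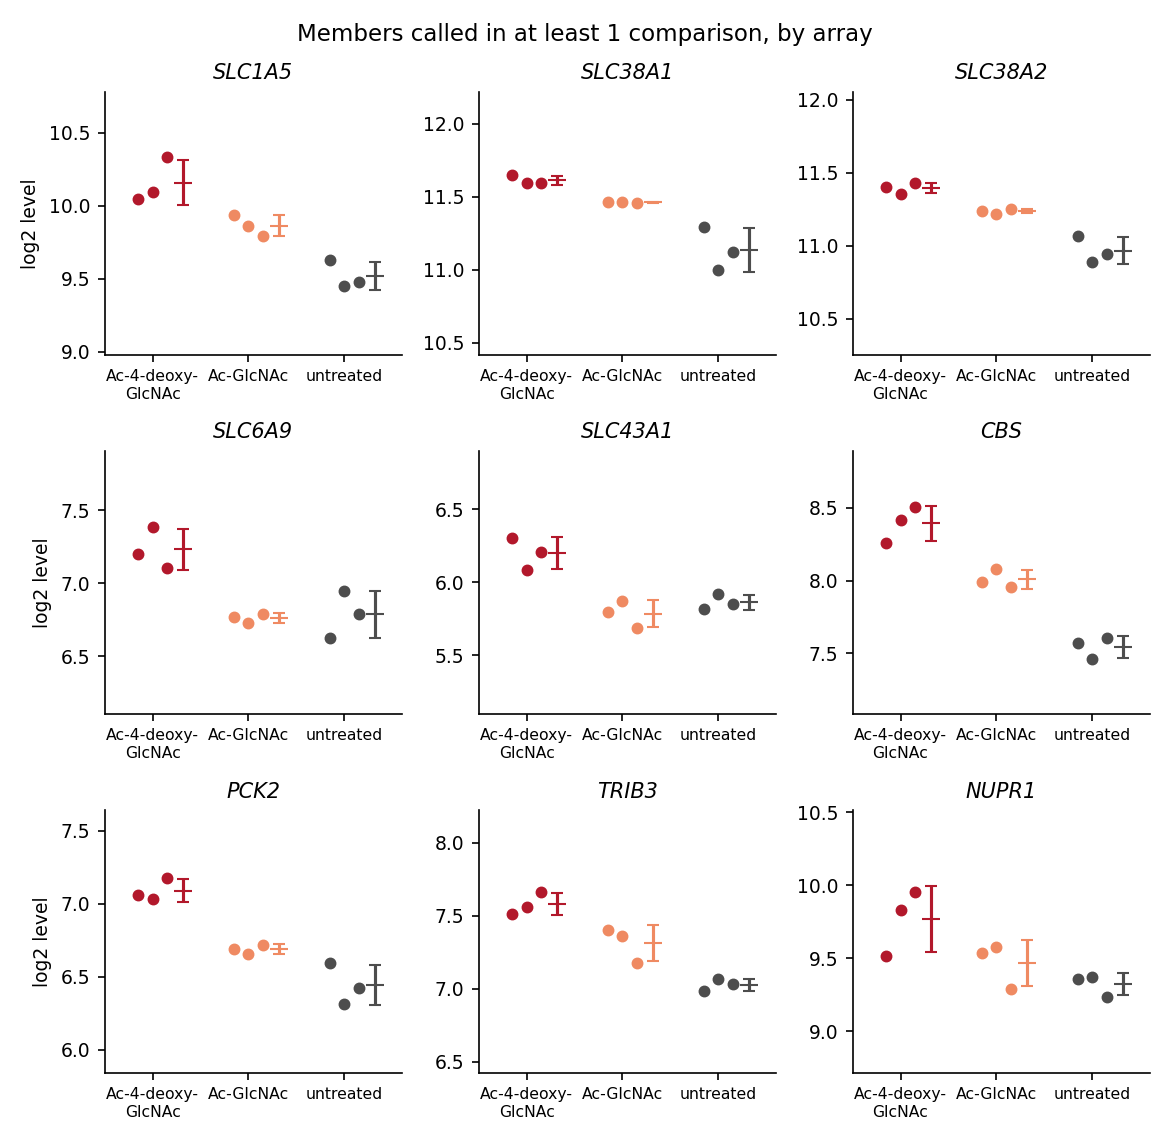
Log2 level (vertical axis, 1.8 units in each panel) of the 9 genes called in at least 1 comparison, with a point per array and, beside the points, the mean and SD of the 3 arrays of a group. In every panel the 3 Ac-4-deoxy-GlcNAc arrays lie above the 3 untreated arrays, and for SLC6A9, SLC43A1 and NUPR1 the Ac-GlcNAc arrays overlap the untreated ones.

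The largest rise was that of CBS, cystathionine beta-synthase, which joins homocysteine and serine in the route to cysteine. CBS had log2 levels of 8.26, 8.41 and 8.50 on Ac-4-deoxy-GlcNAc arrays, 7.99, 8.08 and 7.95 on Ac-GlcNAc arrays and 7.57, 7.46 and 7.60 on untreated arrays. The 3 groups formed separate steps with no overlap. With Ac-4-deoxy-GlcNAc the level was 0.85 log2 above untreated cells (SE 0.10, 95% interval 0.64 to 1.05, adjusted p = 0.000422, limma), a 1.80-fold difference. CTH, cystathionine gamma-lyase, which takes the next step to cysteine, differed by 0.03 log2 in the same comparison (interval -0.18 to 0.24), a value that turned to -0.03 and -0.02 with cyclic loess and quantile normalization.

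PCK2, the mitochondrial phosphoenolpyruvate carboxykinase, had log2 levels of 7.06, 7.03 and 7.18 on Ac-4-deoxy-GlcNAc arrays, 6.69, 6.65 and 6.72 on Ac-GlcNAc arrays and 6.59, 6.31 and 6.42 on untreated arrays. Again no arrays of different groups overlapped. The difference between Ac-4-deoxy-GlcNAc and untreated cells was 0.65 log2 (SE 0.10, interval 0.44 to 0.86, adjusted p = 0.00214, limma). The other 3 enzymes of amino acid metabolism beside CTH were not called. ASNS, asparagine synthetase, had log2 levels of 6.85, 6.82 and 6.49 on Ac-4-deoxy-GlcNAc arrays, 6.44, 6.37 and 6.37 on Ac-GlcNAc arrays and 6.41, 6.64 and 6.45 on untreated arrays. Its highest 2 values were on Ac-4-deoxy-GlcNAc arrays, but the third of those arrays fell within the untreated range, and the difference from untreated cells was 0.22 log2 (interval -0.02 to 0.46, adjusted p = 0.194, limma). GOT1, the cytosolic aspartate aminotransferase, differed by 0.12 log2 (interval -0.27 to 0.51), with the widest spread of the 32 genes on Ac-4-deoxy-GlcNAc arrays (SD 0.44, n = 3). ALDH18A1, which makes the precursor of proline, differed by 0.00 log2 (interval -0.19 to 0.20).

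Of the 9 transporters measured, 5 rose with Ac-4-deoxy-GlcNAc (55.6%) and 4 were not called. The share called higher was 5.38% over all probe sets and 8.79% at or above the median level. The median log2 difference of the 9 was 0.34, against -0.05 over all probe sets and 0.05 over those at or above the median level. It was -0.04 over 26 other amino acid carriers, which were not matched for level. Those carriers reached down to a mean log2 level of 3.89 (SLC1A2), and the 9 transporters to 5.95 (SLC43A1). The part of level in this contrast was not tested. SLC1A5 carries glutamine and other neutral amino acids in exchange across the plasma membrane. It had log2 levels of 10.05, 10.09 and 10.33 on Ac-4-deoxy-GlcNAc arrays, 9.93, 9.86 and 9.79 on Ac-GlcNAc arrays and 9.63, 9.45 and 9.47 on untreated arrays. The groups did not overlap, and the difference between Ac-4-deoxy-GlcNAc and untreated cells was 0.64 log2 (SE 0.10, interval 0.42 to 0.86, adjusted p = 0.00316, limma). SLC1A5 was the only one of the 32 genes with another probe set of its own. On that dimmer probe set the difference from untreated cells was 0.57 log2 with Ac-4-deoxy-GlcNAc (adjusted p = 0.00708, limma) and -0.00 log2 with Ac-GlcNAc, so the probe sets disagreed on Ac-GlcNAc.

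SLC38A1 and SLC38A2 encode sodium-coupled neutral amino acid transporters that load cells with glutamine and alanine, and SLC38A2 is induced by amino acid lack. SLC38A1 had log2 levels of 11.65, 11.60 and 11.59 on Ac-4-deoxy-GlcNAc arrays, 11.46, 11.46 and 11.45 on Ac-GlcNAc arrays and 11.29, 10.99 and 11.12 on untreated arrays. SLC38A2 had log2 levels of 11.40, 11.35 and 11.43 on Ac-4-deoxy-GlcNAc arrays, 11.24, 11.22 and 11.25 on Ac-GlcNAc arrays and 11.07, 10.89 and 10.94 on untreated arrays. For both genes the Ac-GlcNAc arrays lay between the other groups, and the range within each treated group was narrower than that of the untreated group. With Ac-4-deoxy-GlcNAc the difference from untreated cells was 0.48 log2 for SLC38A1 (SE 0.10, interval 0.27 to 0.68, adjusted p = 0.00898, limma). It was 0.43 log2 for SLC38A2 (SE 0.09, interval 0.24 to 0.62, adjusted p = 0.0105, limma). Neither call held when Ac-4-deoxy-GlcNAc replicate 1 and untreated replicate 2 were both left out, and that of SLC38A1 was also lost with the array SD as a covariate.

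SLC6A9 encodes the glycine transporter GlyT1. It had log2 levels of 7.20, 7.38 and 7.11 on Ac-4-deoxy-GlcNAc arrays, 6.77, 6.72 and 6.79 on Ac-GlcNAc arrays and 6.63, 6.94 and 6.79 on untreated arrays. Ac-GlcNAc and untreated arrays overlapped, and all Ac-4-deoxy-GlcNAc arrays lay above both, by 0.44 log2 over untreated cells (SE 0.11, interval 0.21 to 0.67, adjusted p = 0.0219, limma). The call was lost without Ac-4-deoxy-GlcNAc replicate 1 or replicate 2, with an adjusted p of up to 0.0651. SLC43A1 encodes LAT3, a carrier of branched-chain and other large neutral amino acids. Its log2 levels were 6.31, 6.09 and 6.21 on Ac-4-deoxy-GlcNAc arrays, 5.80, 5.87 and 5.69 on Ac-GlcNAc arrays and 5.82, 5.92 and 5.85 on untreated arrays. The mean of SLC43A1 over all arrays, 5.95, exceeded that of only 42.1% of all probe sets. The pattern was that of SLC6A9, with a difference of 0.34 log2 from untreated cells (SE 0.10, interval 0.13 to 0.54, adjusted p = 0.0391, limma). This call held in 1 of the 6 fits that left out an array of the compared groups, the one without Ac-4-deoxy-GlcNAc replicate 2.

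The 4 transporters not called included the subunits of the system xc- and LAT1 exchangers. SLC7A11, the cystine carrier of system xc-, had log2 levels of 12.17, 12.07 and 11.98 on Ac-4-deoxy-GlcNAc arrays, 12.11, 12.11 and 12.33 on Ac-GlcNAc arrays and 11.94, 12.03 and 12.11 on untreated arrays. Ac-4-deoxy-GlcNAc and untreated arrays overlapped (difference 0.05 log2, interval -0.17 to 0.26, and -0.01 with cyclic loess). SLC7A5, the light chain of LAT1, had log2 levels of 11.69, 11.67 and 11.78 on Ac-4-deoxy-GlcNAc arrays, 11.68, 11.61 and 11.58 on Ac-GlcNAc arrays and 11.57, 11.39 and 11.43 on untreated arrays. Both treated groups lay above the untreated arrays without overlap, but the difference of 0.25 log2 with Ac-4-deoxy-GlcNAc did not pass (interval 0.05 to 0.45, adjusted p = 0.0872, limma) except with the trend and robust options (adjusted p = 0.0362, limma), and SLC7A5 has pseudogenes with which its probes could share signal. SLC3A2, the heavy chain that both carriers need at the cell surface, had log2 levels of 10.86, 10.97 and 11.08 on Ac-4-deoxy-GlcNAc arrays, 11.13, 11.09 and 10.97 on Ac-GlcNAc arrays and 10.92, 10.68 and 10.79 on untreated arrays. The Ac-4-deoxy-GlcNAc arrays overlapped the untreated ones, and the difference was 0.17 log2 (interval -0.05 to 0.39). SLC7A1, the carrier of arginine and lysine, differed by 0.16 log2 (interval -0.04 to 0.36).

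Of 6 genes grouped under feedback and growth control, 1 passed (16.7%). Over all probe sets 5.38% were called higher, and 8.79% of those at or above the median level. The gene that passed was TRIB3, a pseudokinase induced by ATF4 and DDIT3 that restrains ATF4. It had log2 levels of 7.52, 7.56 and 7.67 on Ac-4-deoxy-GlcNAc arrays, 7.41, 7.36 and 7.18 on Ac-GlcNAc arrays and 6.98, 7.06 and 7.03 on untreated arrays. The 3 groups did not overlap, and Ac-4-deoxy-GlcNAc exceeded untreated cells by 0.55 log2 (SE 0.10, interval 0.35 to 0.76, adjusted p = 0.00427, limma). CHAC1, which degrades glutathione, had log2 levels of 7.73, 7.79 and 7.47 on Ac-4-deoxy-GlcNAc arrays, 7.66, 7.63 and 7.13 on Ac-GlcNAc arrays and 7.31, 7.15 and 7.21 on untreated arrays. All Ac-4-deoxy-GlcNAc arrays lay above the untreated ones, and the difference of 0.44 log2 missed the threshold (interval 0.14 to 0.74, adjusted p = 0.0565, limma). It passed with the replicate block, with either filter on dim probe sets, with the trend and robust options and with array weights, and in none of the other settings. SESN2, the stress-induced leucine sensor sestrin 2, had log2 levels of 7.08, 7.56 and 7.36 on Ac-4-deoxy-GlcNAc arrays, 7.31, 7.36 and 7.41 on Ac-GlcNAc arrays and 7.28, 7.21 and 7.54 on untreated arrays. The 3 groups of SESN2 overlapped (difference -0.01 log2 from untreated cells, interval -0.28 to 0.26). The mTORC1 inhibitor DDIT4 differed by 0.11 log2 (interval -0.27 to 0.49), the eIF2 phosphatase subunit PPP1R15A by 0.06 log2 (interval -0.17 to 0.29) and the translation repressor EIF4EBP1 by -0.06 log2 (interval -0.29 to 0.16).

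Among the 7 transcription factors and cofactors, 1 was called (14.3%), against 5.38% of all probe sets called higher. The share was 8.79% among probe sets at or above the median level. The gene called was NUPR1. This small chromatin-associated stress protein had log2 levels of 9.52, 9.83 and 9.95 on Ac-4-deoxy-GlcNAc arrays, 9.54, 9.58 and 9.29 on Ac-GlcNAc arrays and 9.36, 9.37 and 9.24 on untreated arrays. The Ac-4-deoxy-GlcNAc arrays lay above the untreated ones and overlapped the Ac-GlcNAc ones. The difference between Ac-4-deoxy-GlcNAc and untreated cells was 0.45 log2 (SE 0.12, interval 0.18 to 0.71, adjusted p = 0.0347, limma). NUPR1 was no longer called with cyclic loess or quantile normalization, nor without replicate 2 or 3 of either Ac-4-deoxy-GlcNAc or untreated cells, and its rise was 0.38 log2 with both normalizations. ATF4 itself had log2 levels of 9.75, 9.60 and 9.85 on Ac-4-deoxy-GlcNAc arrays, 9.71, 9.63 and 9.66 on Ac-GlcNAc arrays and 9.88, 9.44 and 9.24 on untreated arrays. Untreated replicate 1 was the highest of all 9 arrays and untreated replicate 3 the lowest, and the difference of 0.21 log2 with Ac-4-deoxy-GlcNAc was within the spread of the arrays (interval -0.08 to 0.51, adjusted p = 0.296, limma). Without untreated replicate 1 that difference was 0.39 log2 and was called (adjusted p = 0.0348, limma). ATF4 has processed pseudogenes, with which its probes could share signal.

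DDIT3, the stress factor CHOP, had log2 levels of 6.79, 6.79 and 7.10 on Ac-4-deoxy-GlcNAc arrays, 6.94, 7.01 and 6.68 on Ac-GlcNAc arrays and 6.74, 6.34 and 6.33 on untreated arrays. Untreated replicate 1 stood close to the treated arrays and the other untreated replicates below them. The difference from untreated cells was 0.42 log2 with Ac-4-deoxy-GlcNAc (interval 0.13 to 0.72, adjusted p = 0.0611, limma), and 0.56 log2 without untreated replicate 1 (adjusted p = 0.0183, limma). It also passed with quantile normalization, either filter on dim probe sets, the trend and robust options and array weights. ATF3, which forms part of the same stress programme, had log2 levels of 5.28, 5.28 and 4.99 on Ac-4-deoxy-GlcNAc arrays, 5.12, 5.14 and 5.26 on Ac-GlcNAc arrays and 5.26, 5.52 and 5.36 on untreated arrays. Its values lay low on the scale of these arrays and the difference from untreated cells was -0.19 log2 with Ac-4-deoxy-GlcNAc (interval -0.43 to 0.04). CEBPB, a C/EBP partner of ATF4, differed by 0.31 log2 (interval 0.07 to 0.54, adjusted p = 0.0826, limma), and by 0.37 log2 without untreated replicate 1, where it was called (adjusted p = 0.0491, limma). CEBPG differed by 0.16 log2 (interval -0.10 to 0.43) and ATF5 by 0.19 log2 (interval -0.04 to 0.43).

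**Figure D2:**
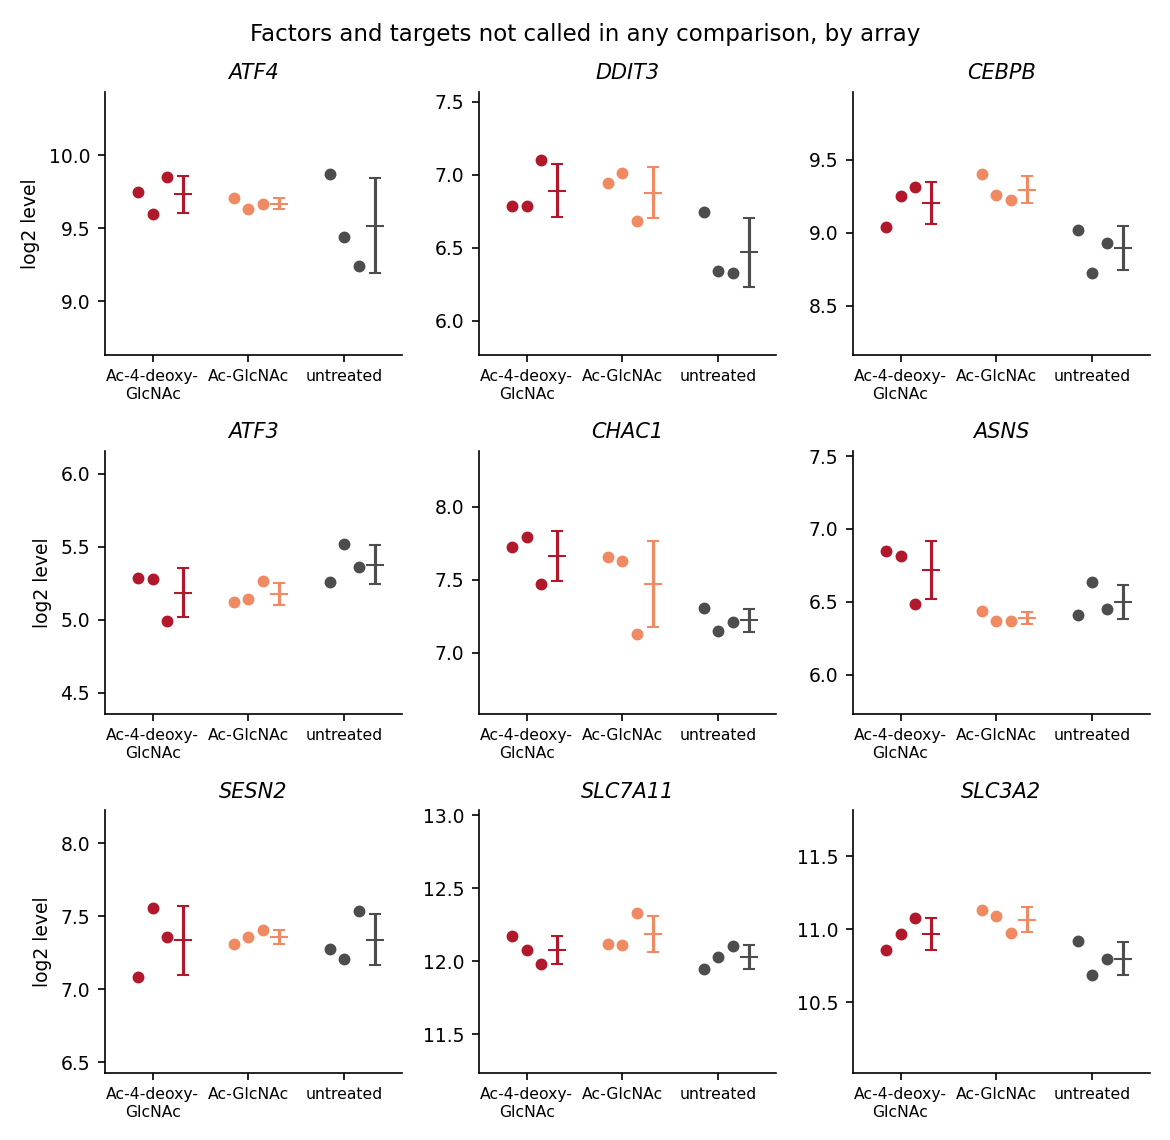
Log2 level (vertical axis, 1.8 units in each panel) of 9 factors and targets that were called in no comparison, with a point per array and the mean and SD of the 3 arrays of a group beside the points. For ATF4 and SESN2 the 3 groups overlap, while all Ac-4-deoxy-GlcNAc arrays of CHAC1, CEBPB and DDIT3 lie above the untreated ones.

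Neither of the eIF2 kinases was called. EIF2AK4 differed by 0.31 log2 between Ac-4-deoxy-GlcNAc and untreated cells (interval 0.01 to 0.60, adjusted p = 0.146, limma) and EIF2AK3 by 0.07 log2 (interval -0.19 to 0.33). Nor was either of the secreted and surface proteins, the hormone-like glycoprotein STC2 (0.04 log2, interval -0.24 to 0.33) and the lipoprotein receptor VLDLR (0.26 log2, interval 0.03 to 0.49).

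With Ac-GlcNAc no gene of the 32 was called in either direction by limma, where 0.207% of all probe sets were called higher and 0.235% lower (0.336% higher at or above the median level). At an unadjusted p under 0.05, 10 of the 32 passed, against 26.4% of all probe sets. Every Ac-GlcNAc array lay above every untreated array on 14 of the 32 genes, against 13.0% of all probe sets and 22.7% of those at or above the median level, and on 0 it lay wholly below (19.3% of all probe sets). The median log2 difference of the 32 was 0.16, against -0.02 over all probe sets and 0.10 over those at or above the median level, and it was 0.05 with cyclic loess and 0.06 with quantile normalization. The 2 comparisons with untreated cells share the same 3 untreated arrays. CBS came closest, with a difference of 0.46 log2 between Ac-GlcNAc and untreated cells (SE 0.10, interval 0.26 to 0.67, adjusted p = 0.0542, limma). CEBPB differed by 0.40 log2 (interval 0.17 to 0.64, adjusted p = 0.0887, limma). CEBPB had log2 levels of 9.40, 9.26 and 9.23 on Ac-GlcNAc arrays and 9.02, 8.73 and 8.93 on untreated arrays, without overlap. DDIT3 differed by 0.41 log2 (interval 0.11 to 0.70, adjusted p = 0.109, limma). SLC1A5 differed by 0.34 log2 (interval 0.12 to 0.57), SLC38A1 by 0.33 log2 (interval 0.12 to 0.53), TRIB3 by 0.29 log2 (interval 0.08 to 0.49), SLC38A2 by 0.27 log2 (interval 0.08 to 0.46) and PCK2 by 0.24 log2 (interval 0.03 to 0.45). By contrast, SLC6A9 differed by -0.03 log2 (interval -0.26 to 0.20), SLC43A1 by -0.08 log2 (interval -0.28 to 0.13) and ASNS by -0.11 log2 (interval -0.35 to 0.13).

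**Figure D3:**
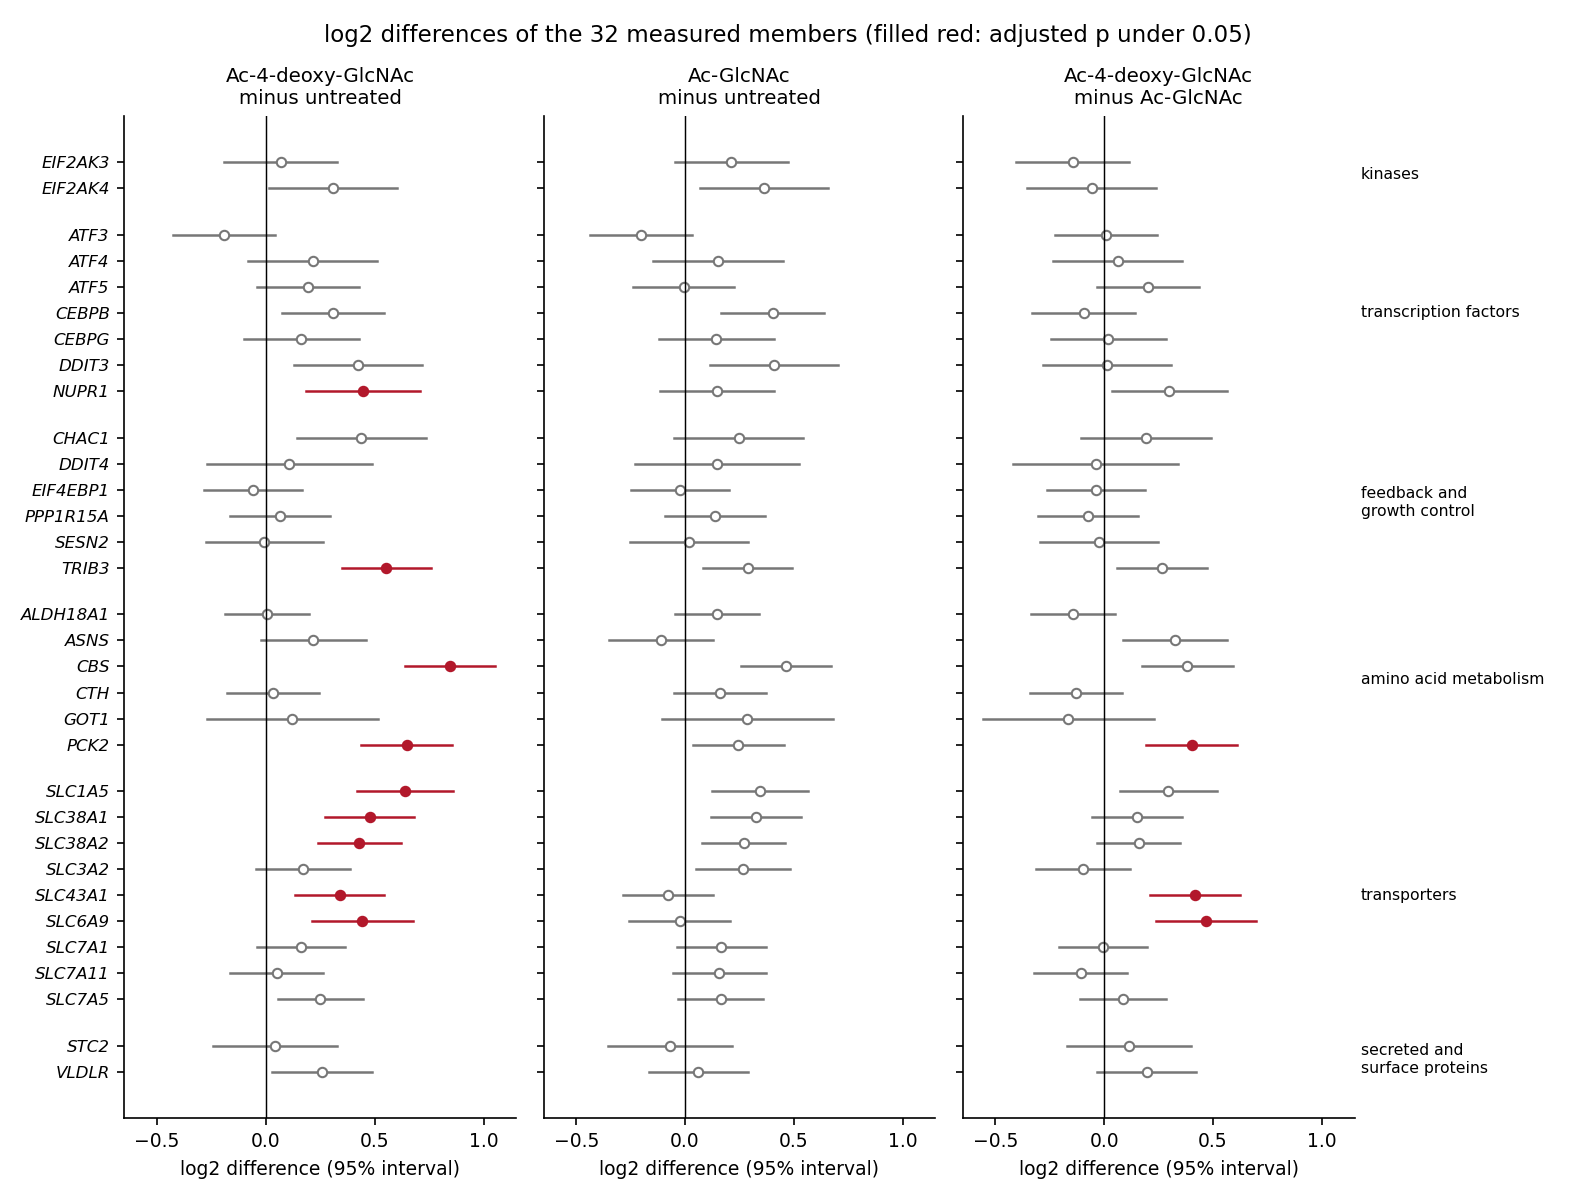
Log2 differences of the 32 measured genes (horizontal axis) with 95% intervals, grouped by role, for Ac-4-deoxy-GlcNAc minus untreated, Ac-GlcNAc minus untreated and Ac-4-deoxy-GlcNAc minus Ac-GlcNAc; filled red points passed an adjusted p under 0.05. In the first panel 9 points are filled, in the second 0 and in the third 3 (PCK2, SLC43A1 and SLC6A9).

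The analog and its parent compound were compared at the same dose and time, in 1 of the 3 pairs of groups tested. Ac-4-deoxy-GlcNAc gave higher levels than Ac-GlcNAc of 3 of the 32 genes (9.38%, against 0.896% of all probe sets called higher and 0.997% of those at or above the median level), and 0 were called lower (1.48% of all probe sets). The glycine carrier SLC6A9 differed by 0.47 log2 (SE 0.11, interval 0.24 to 0.70, adjusted p = 0.0358, limma), the large neutral amino acid carrier SLC43A1 by 0.42 log2 (SE 0.10, interval 0.21 to 0.62, adjusted p = 0.0366, limma) and PCK2 by 0.40 log2 (SE 0.10, interval 0.19 to 0.61, adjusted p = 0.0476, limma). For SLC6A9 and SLC43A1 the Ac-GlcNAc arrays overlapped the untreated ones, whereas for PCK2 they lay between both other groups. These calls rested on the full set of arrays: of the 6 fits that left out an array of either compound, PCK2 and SLC6A9 were called in 0 and SLC43A1 in 1, that without Ac-4-deoxy-GlcNAc replicate 2. Their log2 differences in those fits still ran from 0.36 to 0.43 for PCK2, 0.39 to 0.53 for SLC6A9 and 0.36 to 0.47 for SLC43A1.

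For most of the genes no difference between the compounds was shown, and the intervals say how large one could be. CBS differed by 0.38 log2 (interval 0.17 to 0.59, adjusted p = 0.0575, limma) and passed with cyclic loess (adjusted p = 0.0117, limma), and ASNS by 0.33 log2 (interval 0.09 to 0.57, adjusted p = 0.165, limma). SLC1A5 differed by 0.29 log2 on its brighter probe set (interval 0.07 to 0.52, adjusted p = 0.18, limma), and by 0.58 log2 on the dimmer one, which passed (adjusted p = 0.0142, limma). The intervals of ATF4 (-0.23 to 0.36), DDIT3 (-0.28 to 0.31) and SESN2 (-0.29 to 0.25) held zero. Every Ac-4-deoxy-GlcNAc array lay above every Ac-GlcNAc array on 9 of the 32 genes (9.56% of all probe sets and 8.15% of those at or above the median level), and wholly below on 1, ALDH18A1 (11.6%). At an unadjusted p under 0.05, 8 of the 32 passed (13.6% of all probe sets). In the moderated F test over all 3 groups, 8 of the 32 passed at an adjusted p under 0.05, against 8.36% of all probe sets.

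All 9 arrays of a gene stood in the order Ac-4-deoxy-GlcNAc above Ac-GlcNAc above untreated for 6 of the 32 genes, TRIB3, PCK2, CBS, SLC38A1, SLC38A2 and SLC1A5, an order looked for after the values had been seen. It held for 1.49% of all probe sets, and the reverse order held for 0 of the 32 and 1.08% of all probe sets. With cyclic loess or quantile normalization 5 of the 32 kept the order, without TRIB3, and with median centring 7 did, with SLC7A5 added. For SLC1A5 the order is that of its brighter probe set. On the dimmer one Ac-GlcNAc differed from untreated cells by -0.00 log2.

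**Figure D4:**
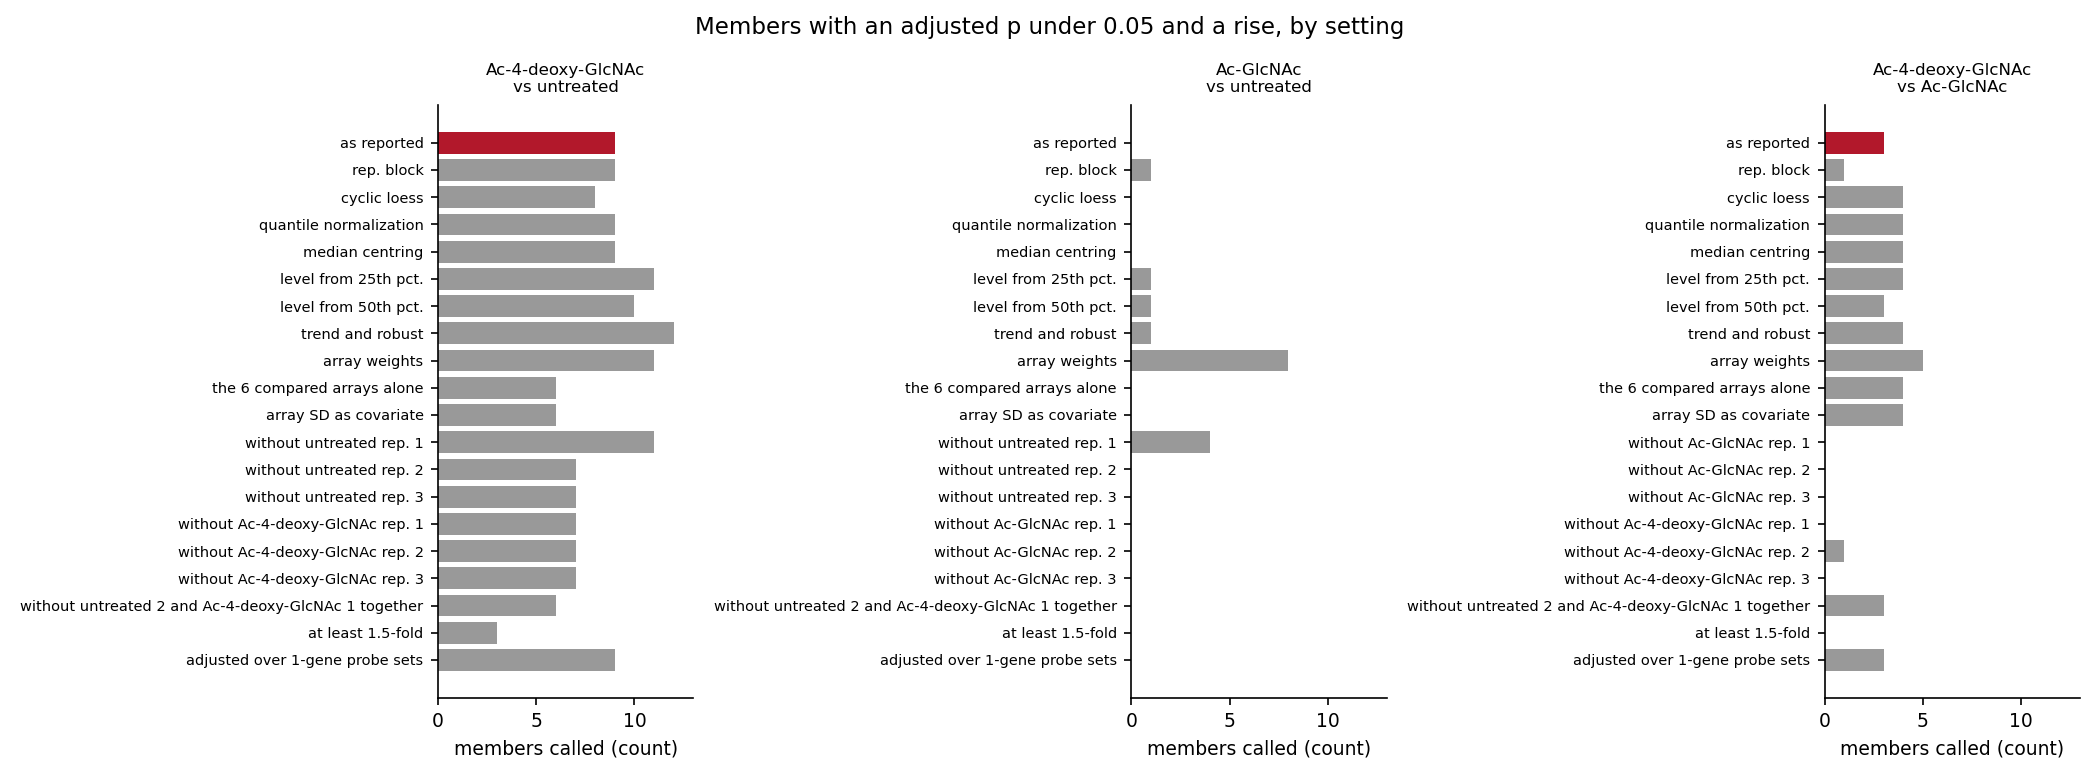
Number of the 32 genes called higher (horizontal axis, count) in each comparison as reported (red) and under each other setting (grey), with settings from top to bottom. The count for Ac-4-deoxy-GlcNAc against untreated runs from 3 with a 1.5-fold minimum to 12 with the trend and robust options, and that for Ac-GlcNAc against untreated from 0 to 8 with array weights.

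Neighbouring genes of the same biology were read from further lists, also drawn up with earlier results of these data known, whose median log2 differences between Ac-4-deoxy-GlcNAc and untreated cells were 0.20 for other reported ATF4 targets, -0.04 for other amino acid carriers and 0.04 for the eIF2 machinery. The lists were not matched for level. SLC1A2 of the carriers had a mean log2 level of 3.89. EIF2S2 of the eIF2 list had one of 3.36, which exceeded that of only 0.202% of all probe sets. In the comparison of Ac-4-deoxy-GlcNAc with untreated cells 5.38% of all probe sets were called higher and 5.64% lower. Among those at or above the median level 8.79% were called higher. Of 26 other reported ATF4 targets, 7 (26.9%) were called higher with Ac-4-deoxy-GlcNAc than in untreated cells and 0 lower. They were led by the serine synthesis enzyme PHGDH (1.10 log2), the tryptophanyl-tRNA synthetase WARS1 (0.76 log2) and the endoplasmic reticulum protein HERPUD1 (0.71 log2). PHGDH (0.78 log2, adjusted p = 0.00076, limma) and WARS1 (0.45 log2, adjusted p = 0.0455, limma) also passed between Ac-4-deoxy-GlcNAc and Ac-GlcNAc, higher with the analog. Between the compounds, 0.896% of all probe sets were called higher with the analog and 1.48% lower. Of 26 other amino acid carriers, 3 (11.5%) exceeded untreated cells with Ac-4-deoxy-GlcNAc, and 1 was lower, the glutamate carrier SLC1A1 (-0.40 log2). The 3 were the cationic carrier SLC7A2 (0.59 log2), the y+L light chain SLC7A7 (0.47 log2) and SLC38A6 (0.43 log2). SLC7A2 (0.64 log2, adjusted p = 0.0211, limma) and SLC1A1 (-0.40 log2, adjusted p = 0.0359, limma) differed likewise between Ac-4-deoxy-GlcNAc and Ac-GlcNAc. Of 13 genes of the eIF2 machinery, 1 (7.69%) was called, EIF2S3, a subunit of eIF2. It was higher with Ac-4-deoxy-GlcNAc than in untreated cells by 0.41 log2 (adjusted p = 0.0457, limma). With Ac-GlcNAc against untreated cells, 0 genes of these lists were called by limma, and 4 eIF2 genes, 6 carriers and 6 targets had an unadjusted p under 0.05, where 26.4% of all probe sets did.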

How the data were processed

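Gene expression was measured on 9 single-colour arrays of SKOV3 RNA, 3 per group. The deposited values are log2 levels. The submitters' processing notes name RMA, Partek and hg18 for how the authors made them; versions and settings are not given in the sources used here. No scanner files or batch information were used, and signal over background was not assessed.

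Of 17859 probe sets, 14413 were annotated to 1 gene, 2405 to several and 1041 to none, and where a gene had several of its own the one with the highest mean was used. These were fitted without further normalization (lmFit and eBayes of limma 3.58.1, R 4.3.3) on all 9 arrays at once by group, leaving 6 residual degrees of freedom. P-values were two-sided and adjusted by Benjamini-Hochberg over all probe sets. The fit was tested on simulated arrays. Named array by array were all called genes and 10 fixed ones, and others by difference and interval. CEBPB's Ac-GlcNAc arrays were added after its values were seen.

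Genes and lists were chosen with earlier results of these data known. Alternatives were the replicate block, other normalizations, filters, variance options, weights, subsets of arrays and a 1.5-fold minimum. The promoter search used Python 3.11.15.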

Additional observations from a re-analysis of the deposited data

How the results depend on the processing

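Against untreated cells, 9 of the 32 genes were called higher with Ac-4-deoxy-GlcNAc and 3 with a minimum of 1.5-fold (CBS, PCK2 and SLC1A5). The count was 6 on the 6 compared arrays alone, with the array SD as covariate, or without both Ac-4-deoxy-GlcNAc replicate 1 and untreated replicate 2. It ran from 7 to 11 when 1 of the 6 compared arrays was left out. For Ac-GlcNAc against untreated cells, 0 were called as reported, 1 (CBS) with the replicate block, with either filter (25th and 50th percentile) and with trend and robust options, and 8 with array weights, where 5.06% of all probe sets were called higher against 0.207% as reported and untreated replicate 2 had a weight of 0.241. Leaving out 1 of the 6 compared arrays gave 0 to 4, with 4 without untreated replicate 1 (3.55% of all probe sets). Between the compounds, 3 were called as reported, 1 with the replicate block, 5 with array weights and 0 with 1.5-fold. The count was 0 to 1 without 1 of the 6 compared arrays. The cause of these changes was not tested. Arrays with the same number had correlations of -0.245 to 0.369 in their deviations, over 0.1 in 3 of 9 pairs. Of the 9 arrays, 3 correlated best with their own number. These values give no clear sign that the numbers pair the samples, but with 3 arrays per group they cannot exclude it. Under the replicate block SLC43A1 lost its calls against untreated cells and between the compounds and PCK2 its call between the compounds, CHAC1 gained one against untreated cells, and the first count stayed 9. No called difference changed sign. The 3 arrays per group and unknown background limit what small differences show.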
